A study of Mus musculus with 12 samples.

Results

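Described here are 10 of the genes of mouse chromosome 7 whose expression separated Abca4Ko from control libraries. The members are Eps8l1, Tnnt1, Gramd1a, Gm12758, Pop4, Klk1b22, Hapln3, Prc1, Hddc3 and Gdpd3. They are 10 of the 56748 entries in the scaled count table, and 9 of them code for protein. They were chosen by name from genes whose genotype groups did not overlap, so their genotype values are given as a description with no test. All 10 lay on chromosome 7 of the GRCm38 annotation, whereas Abca4 lies on chromosome 3.

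The study sequenced polyadenylated RNA from the retina of 2-month-old mice before and after translating ribosome affinity purification (TRAP) from rods. Each of the 4 groups had 3 libraries: Abca4Ko rod TRAP, control rod TRAP, Abca4Ko retina and control retina. The Abca4Ko mice are labelled Abca4-/- and the control mice Abca4+/+, and mice of both genotypes carried the RiboTag allele, which puts an epitope on a ribosomal protein, and the i75-Rod-Cre transgene, in which the rhodopsin promoter drives Cre, so that tagged ribosomes come from cells in which that promoter has been active. Mice were perfused with cycloheximide, and cDNA was made from 5 ng of RNA for the retina and 10 ng for rod TRAP. The study speaks of littermate controls and, for the retina, of C57Bl6 mice, and the number of animals in a library is not given in the sources used here. Abca4 encodes the transporter that clears retinaldehyde conjugates from photoreceptor discs, and its loss models Stargardt disease. Polysomal RNA pulled down with the tag is enriched for transcripts under translation in rods, whereas the retina sample before pull-down holds all cell types. A transcript enriched after pull-down is read here as rod-borne, and a depleted one as carried mainly by other cells. The pull-down also selects RNA on ribosomes, and the fractions differ in RNA input. Cell source, ribosome binding and input therefore cannot be told apart in the fraction values.

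The 6 rod TRAP libraries each summed to between 17096515 and 17097707 scaled counts and the 6 retina libraries to between 17860761 and 17862326, since the authors had scaled them to a common depth. The spacing of the low values put the reads behind them at about 16200000 to 18200000 a library in rod TRAP and 14800000 to 23200000 in retina. The targeted gene was measured at 195, 365 and 13156 scaled counts in Abca4Ko rod TRAP replicates 1 to 3 and at 153, 366 and 8124 in their retina libraries, against 53193 to 61017 and 37619 to 38929 in control. The library labelled Abca4Ko replicate 3 therefore held 22.9% of the control mean of Abca4 in rod TRAP CPM (scaled counts relative to the library total, after TMM rescaling) and 19.6% in retina. All 10 rod markers were higher in control rod TRAP than in control retina (median log2 difference 1.33), and the median over the 6 Mueller glia markers was -4.77. Lens transcripts varied by library, with the 7 markers summing to 170, 75701 and 106750 scaled counts in Abca4Ko retina and 231988, 343 and 811 in control retina. Y-linked transcripts were present in all 6 libraries of each fraction and Xist reached 10 scaled counts in 3 of them. Whether such libraries pool animals of both sexes was not tested.

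The members have unrelated functions. Eps8l1 is a relative of Eps8, an adaptor that links receptor tyrosine kinases to actin remodelling. Tnnt1 is the slow skeletal muscle troponin T, Gramd1a is a membrane protein of the endoplasmic reticulum that carries cholesterol inwards from the plasma membrane, and Pop4 is a protein subunit of RNase P and RNase MRP, which process transfer and ribosomal RNA precursors. Gm12758 is annotated as an antisense transcript. Among the members that were higher in Abca4Ko, Prc1 bundles microtubules of the central spindle during cytokinesis, Gdpd3 is a lysophospholipase D, Hapln3 is a hyaluronan and proteoglycan link protein, Hddc3 is a hydrolase of the alarmone ppGpp and of NADPH, and Klk1b22 is a serine protease of the mouse glandular kallikrein family.

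The sequences around the annotated starts of 6 members are shown: Eps8l1 as the member with the largest genotype difference, Prc1 as the one with the most even increase in rod TRAP, and the 4 in which a searched motif was found. Each runs from 250 bases before the start to 50 after it (RefSeq, GRCm38.p6, first listed start) and is written 5′ to 3′ on the strand of the gene. Capitals mark TAATCC, the core of the sites of the photoreceptor factor CRX, or TATAAA, the letters of the TATA box. In Hapln3 these letters lie at the upstream end of the window, farther from the start than the usual place of a TATA box.
Eps8l1, chr7:4460447-4460746, plus strand: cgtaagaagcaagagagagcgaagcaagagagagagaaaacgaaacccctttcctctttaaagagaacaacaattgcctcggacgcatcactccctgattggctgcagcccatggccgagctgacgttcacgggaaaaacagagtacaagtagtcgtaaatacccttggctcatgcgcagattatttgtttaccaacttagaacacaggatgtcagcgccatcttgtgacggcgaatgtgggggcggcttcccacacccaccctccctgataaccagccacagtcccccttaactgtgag
Tnnt1, chr7:4515926-4516225, minus strand: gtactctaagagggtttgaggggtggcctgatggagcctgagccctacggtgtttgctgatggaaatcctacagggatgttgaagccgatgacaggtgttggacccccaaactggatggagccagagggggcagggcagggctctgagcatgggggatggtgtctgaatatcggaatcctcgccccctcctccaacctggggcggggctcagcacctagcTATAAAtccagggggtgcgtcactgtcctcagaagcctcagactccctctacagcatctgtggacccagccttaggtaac
Pop4, chr7:38271299-38271598, minus strand: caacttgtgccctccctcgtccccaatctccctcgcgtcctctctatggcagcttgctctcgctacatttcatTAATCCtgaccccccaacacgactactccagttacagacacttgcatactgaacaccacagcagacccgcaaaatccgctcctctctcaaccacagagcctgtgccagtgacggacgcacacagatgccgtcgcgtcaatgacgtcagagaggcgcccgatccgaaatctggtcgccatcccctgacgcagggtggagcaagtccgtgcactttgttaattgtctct
Hapln3, chr7:79130969-79131268, minus strand: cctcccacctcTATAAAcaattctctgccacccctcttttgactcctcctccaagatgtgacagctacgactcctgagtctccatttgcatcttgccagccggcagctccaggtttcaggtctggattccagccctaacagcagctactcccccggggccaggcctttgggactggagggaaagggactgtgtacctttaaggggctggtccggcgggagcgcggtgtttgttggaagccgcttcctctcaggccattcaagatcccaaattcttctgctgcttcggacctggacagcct
Prc1, chr7:80294201-80294500, plus strand: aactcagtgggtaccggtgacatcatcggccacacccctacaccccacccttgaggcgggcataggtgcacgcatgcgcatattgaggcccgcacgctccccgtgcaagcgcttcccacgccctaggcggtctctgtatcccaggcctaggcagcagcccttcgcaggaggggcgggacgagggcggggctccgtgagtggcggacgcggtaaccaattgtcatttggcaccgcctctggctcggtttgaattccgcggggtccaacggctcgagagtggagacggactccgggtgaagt
Hddc3, chr7:80342887-80343186, plus strand: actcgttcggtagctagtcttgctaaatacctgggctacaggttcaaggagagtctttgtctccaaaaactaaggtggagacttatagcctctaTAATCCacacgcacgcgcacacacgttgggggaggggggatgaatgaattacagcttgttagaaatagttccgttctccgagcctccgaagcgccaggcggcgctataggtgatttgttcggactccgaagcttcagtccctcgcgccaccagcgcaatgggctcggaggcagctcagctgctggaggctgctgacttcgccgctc
RefSeq listed 13 starts for the 10 members. TAATCC, searched on both strands, lay in 2 of these 13 windows, those of Pop4 and Hddc3, and in 7.06% of all 32851 windows. TATAAA lay in the windows of Tnnt1 and Hapln3 and in 13.6% of all windows. The E-box CACGTG was in none of the 13 and in 7.15% of all. Neither motif that was found marked the lower or the higher members, since Pop4 and Tnnt1 were lower and Hddc3 and Hapln3 higher in Abca4Ko.

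The first comparison asks how the members differed between Abca4Ko and control. Groups of all 10 members did not overlap in rod TRAP, where 17.6% of the 13104 genes tested did not overlap, and in retina, where the share was 19.9% of 16964. In both fractions 5 members were lower in Abca4Ko, Eps8l1, Tnnt1, Gramd1a, Gm12758 and Pop4, and 5 were higher, Klk1b22, Hapln3, Prc1, Hddc3 and Gdpd3. Among all genes tested, 9.07% in rod TRAP and 9.47% in retina did not overlap with Abca4Ko lower, and 8.55% and 10.4% with Abca4Ko higher. The retina separation of Hapln3 was the narrowest, and it held on TMM-rescaled CPM but not on the scaled counts or on TPM, the length-corrected values, as deposited. The direction of each member was the same in rod TRAP and in retina. The retina sample contains the rods from which the TRAP sample was drawn, so the fractions are not independent of each other. Of the 9 members that passed the filter in rod TRAP, 8 were past an adjusted p of 0.05 (1.13% of all genes tested), and in retina 5 of 10 were (0.106%). Because this contrast chose the members, nothing is read from those counts. Cone transcripts also moved with genotype in rod TRAP, where the 6 cone markers summed to 5664 to 6936 scaled counts in Abca4Ko and 4380 to 4630 in control. All 6 had higher values in Abca4Ko there (median log2 difference 0.50, all below an unadjusted p of 0.05), and 1, Gngt2, passed an adjusted p of 0.05 (0.0224 in limma). In retina their median was -0.30 and none passed, with 2 below an unadjusted p of 0.05. The part of cone RNA in the values of the members was not tested. In bulk libraries, fewer cells of a type and less RNA per cell cannot be told apart.

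**Figure D1:**
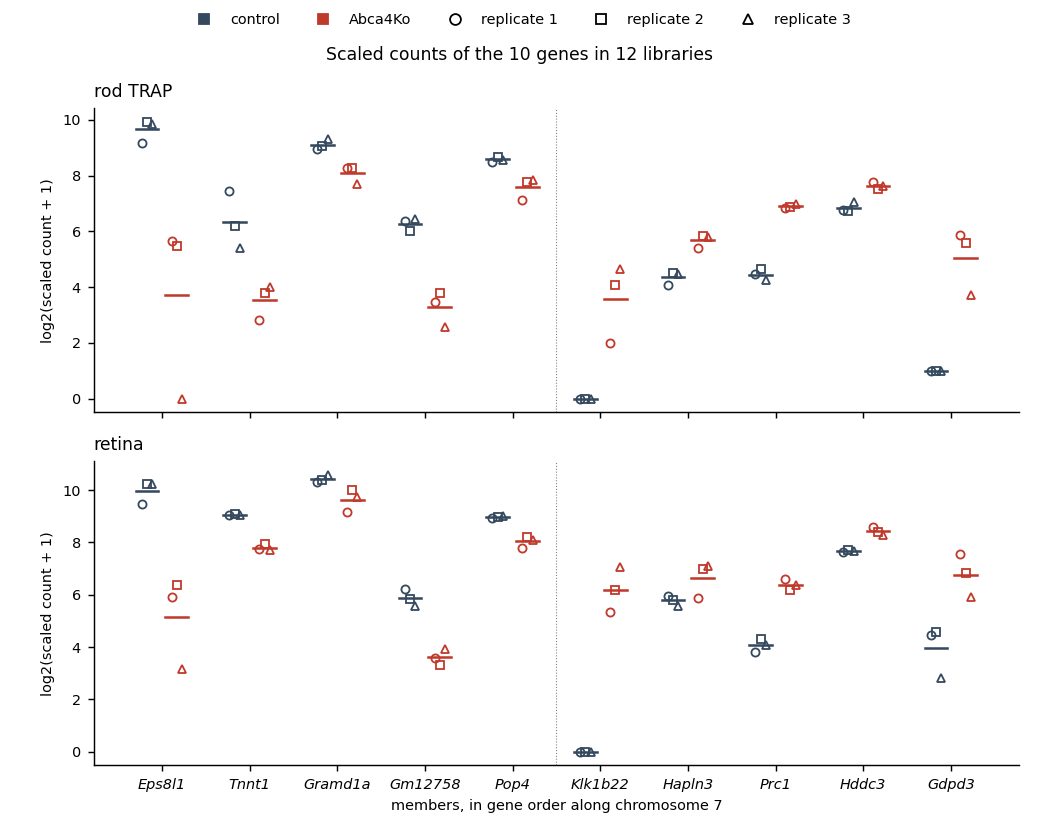
Each point is the log2(scaled count + 1) of one member in one library, in rod TRAP (top) and retina (bottom), with control in blue, Abca4Ko in red, a symbol for each replicate and a bar at the mean of 3. Members stand in gene order along chromosome 7, the 5 left of the dotted line lower and the 5 right of it higher in Abca4Ko; Klk1b22 is at 0 in all 6 control libraries.

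Eps8l1 had the largest genotype difference of the members fitted on log2(CPM + 0.5), in both fractions. This rank depends on the scale. By the ratio of mean CPM in rod TRAP, Gdpd3 differed 39.9-fold and Eps8l1 25.7-fold. With a pseudocount of 0.1 CPM in retina, the log2 difference was 5.37 for Klk1b22 and -4.76 for Eps8l1. The scaled counts of Eps8l1 in rod TRAP were 50, 44 and 0 in Abca4Ko and 582, 971 and 933 in control. In retina they were 60, 83 and 8 in Abca4Ko and 709, 1215 and 1209 in control. Even the highest Abca4Ko library was thus far below the lowest control library, by 10.9-fold in rod TRAP CPM and 9.12-fold in retina. Mean CPM was 1.88 ± 1.65 (SD, n = 3) against 48.3 ± 12.4 in rod TRAP and 2.89 ± 2.17 against 58.2 ± 15.4 in retina. The log2 difference, Abca4Ko minus control on log2(CPM + 0.5), was -4.76 (SE 0.88) in rod TRAP and -4.41 (SE 0.57) in retina. Per length the control level was 48.5 ± 11.7 TPM in rod TRAP, second among the members after Hddc3 at 53.3 ± 4.26, a difference within their spread.

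Tnnt1 was the lower member whose libraries differed most between the fractions. Rod TRAP held 6, 13 and 15 scaled counts in Abca4Ko and 174, 73 and 41 in control. The control libraries were thus widely spread, and the lowest of them was 2.81-fold above the highest Abca4Ko library in CPM. Retina held 212, 246 and 208 in Abca4Ko and 523, 549 and 530 in control, a much tighter set. The log2 difference was -2.21 (SE 0.41) in rod TRAP and -1.23 (SE 0.18) in retina. Summed counts of the 8 skeletal muscle markers ranged from 74 to 120 in the rod TRAP libraries and from 108 to 169 in retina, with 3 to 5 of the 8 at 0 in all libraries of a group.

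Gramd1a and Pop4 were the abundant lower members with moderate differences. Gramd1a had 306, 312 and 206 scaled counts in Abca4Ko rod TRAP and 496, 537 and 633 in control. In retina it had 575, 1037 and 843 in Abca4Ko and 1278, 1330 and 1532 in control. Its CPM averaged 16.2 ± 3.95 in Abca4Ko and 32.4 ± 4.10 in control rod TRAP (SD, n = 3), and in retina the Abca4Ko mean was 58.5% of control with a log2 difference of -0.78 (SE 0.19). The lowest retina value was in Abca4Ko replicate 1, where markers of several cell types were also lowest among the Abca4Ko retina libraries. The amacrine cell markers summed to 4605 scaled counts there against 9496 and 10790. Sums were 7967 against 15803 and 18667 for bipolar cells, and 9237 against 13607 and 13851 for ganglion cells. Mueller glia had 58285 against 83505 and 78315. The rod sum was the highest, 2221055 against 1821470 and 1503961. The part of this composition in the Gramd1a value and in other retina values was not tested. Pop4 had 139, 219 and 228 scaled counts in Abca4Ko rod TRAP and 361, 404 and 381 in control. In retina Pop4 had 221, 296 and 276 against 484, 498 and 509. Pop4 in Abca4Ko was 51.0% of control in rod TRAP and 52.9% in retina, a similar share in either fraction, with log2 differences of -0.96 (SE 0.15) and -0.90 (SE 0.17).

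Gm12758, the antisense transcript, was low everywhere. Its scaled counts were 10, 13 and 5 in Abca4Ko rod TRAP and 82, 63 and 86 in control. In retina they were 11, 9 and 14 against 73, 56 and 46. The ranges were well apart in both fractions, and the Abca4Ko mean was 12.2% of control in rod TRAP and 19.4% in retina. The log2 difference was -2.27 (SE 0.23) in rod TRAP and -1.72 (SE 0.25) in retina.

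Prc1 had the most uniform increase in rod TRAP, with Abca4Ko libraries close to one another. Rod TRAP held 113, 117 and 125 scaled counts in Abca4Ko and 21, 24 and 18 in control. Retina held 95, 71 and 82 in Abca4Ko and 13, 19 and 16 in control. The Abca4Ko mean was 5.67-fold the control mean in rod TRAP CPM and 5.26-fold in retina, with log2 differences of 2.11 (SE 0.17) and 1.88 (SE 0.24). The level stayed low per length, at 4.13 ± 0.64 TPM in Abca4Ko rod TRAP against 0.73 ± 0.42 in control.

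Gdpd3 and Klk1b22 were near or at 0 in control rod TRAP. Gdpd3 had 58, 47 and 12 scaled counts in Abca4Ko rod TRAP and 1, 1 and 1 in control. The ratio of the summed scaled counts was 39.0, a description that rests on a control sum of 3. In retina Gdpd3 had 187, 112 and 60 in Abca4Ko and 21, 23 and 6 in control, a log2 difference of 2.29 (SE 0.44). Klk1b22 had 3, 16 and 24 scaled counts in Abca4Ko rod TRAP and 39, 72 and 131 in Abca4Ko retina. It was at 0 in all 6 control libraries, and it did not pass the filter in rod TRAP. Set against a floor of 3 scaled counts a library, taken in place of 0, the Abca4Ko mean of Klk1b22 was 4.78-fold that floor in rod TRAP and 26.9-fold in retina. Within Abca4Ko retina, Klk1b22 took the same order as the lens sums of 170, 75701 and 106750, and in Abca4Ko rod TRAP its lowest value, 3, was in the library with the lowest lens sum, 18 against 1655 and 1301. In control the library with the highest lens sum of all, retina replicate 1 at 231988, had 0 Klk1b22. The part of lens RNA in these values was not tested.

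Hapln3 and Hddc3 had the smallest increases. Hapln3 had 41, 56 and 55 scaled counts in Abca4Ko rod TRAP and 16, 22 and 21 in control. In retina it had 58, 126 and 137 in Abca4Ko and 61, 55 and 47 in control, so that Abca4Ko replicate 1 lay within the control range. The log2 difference was 1.07 (SE 0.19) in rod TRAP and 0.80 (SE 0.28) in retina. Hddc3 had 219, 182 and 198 scaled counts in Abca4Ko rod TRAP and 108, 104 and 132 in control. In retina Hddc3 had 381, 341 and 308 against 197, 209 and 205. The Hddc3 groups were apart in both fractions, with mean ratios of 1.76 and 1.71 in CPM. In TPM the Hddc3 difference was smaller, 66.4 ± 5.46 against 53.3 ± 4.26 in rod TRAP and 96.8 ± 8.93 against 67.8 ± 6.29 in retina.

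The second comparison asks where the members are expressed, and it used control mice only, so that the genotype difference did not enter. Of the 8 members that passed the filter, 6 differed between rod TRAP and retina at an adjusted p of 0.05 (limma, two-sided), 3 higher and 3 lower in rod TRAP. This is a common outcome, since 75.4% of the 16286 genes tested passed, 36.6% higher and 38.8% lower. The fit did not use the pairing of the fractions by replicate number. With that number as a block, Eps8l1 passed and Pop4 did not. With the scaling of the authors alone, 26.3% of the genes called were higher in rod TRAP against 48.6% after TMM, and the median of all genes moved by -0.59 on the log2 scale. The labels do not say that the libraries come from separate animals, so the p-values measure the spread between these libraries, which may be technical.

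Prc1, Gm12758 and Pop4 were the members higher in control rod TRAP. Gm12758 averaged 5.64 ± 0.90 CPM in rod TRAP and 2.61 ± 0.65 in retina (SD, n = 3), a log2 difference of 0.99 (SE 0.21, adjusted p = 9.70e-04 in limma). For Prc1 the difference was 0.75 (SE 0.19, adjusted p = 0.00357 in limma), from a low level of 1.54 ± 0.22 and 0.71 ± 0.10 CPM. With the scaling of the authors alone both kept their direction but missed the threshold, with adjusted p = 0.0909 for Gm12758 and 0.15 for Prc1 in limma. Pop4 was higher by 0.32 (SE 0.13, adjusted p = 0.0389 in limma), and this call held in 3 of 15 alternatives and in none of the 6 fits that left out 1 library. With the scaling of the authors alone Pop4 was called in the opposite direction, with a log2 difference of -0.31 (adjusted p = 0.0383 in limma), and on the TPM table it was -0.15 (adjusted p = 0.340 in limma), so its direction depends on the scaling.

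Tnnt1, Gramd1a and Hapln3 were lower in control rod TRAP than in control retina. Tnnt1 had the largest fraction difference of the members that passed the filter. It averaged 7.03 ± 5.08 CPM in rod TRAP and 23.9 ± 0.63 in retina, a log2 difference of -1.91 (SE 0.35, adjusted p = 2.58e-04 in limma). Without control retina replicate 3 the adjusted p was 0.0654 (limma). Gramd1a was lower by -0.60 (SE 0.14, adjusted p = 0.00170 in limma) and passed in 15 of 15 alternatives. Hapln3 was lower by -0.60 (SE 0.20, adjusted p = 0.0178 in limma) and passed in 13 of 15, with an adjusted p of 0.0760 without control rod TRAP replicate 1 and 0.0837 without control retina replicate 1. None of these was depleted as far as the Mueller glia markers (median -4.77) or the bipolar cell markers (median -5.02). Of the 6 bipolar markers, 1, Prkca, went the other way, at 1.57. Tnnt1 lay near the medians of the cone (-1.86), vascular (-2.07) and pigment epithelium markers (-2.56). The vascular markers ran from -4.66 to -0.39, and the amacrine marker Slc6a9 (-1.68) and the muscle marker Acta1 (-2.13) were also near. No cell source of Tnnt1 is read from this. Gramd1a and Hapln3 were less depleted than any of these 3 medians.

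Eps8l1 and Hddc3 did not pass the threshold. Eps8l1 averaged 60.6 ± 15.7 CPM in rod TRAP and 46.6 ± 12.3 in retina, a log2 difference of 0.38 (SE 0.22, adjusted p = 0.139 in limma), and without control rod TRAP replicate 1 it was 0.61 (adjusted p = 0.0200). With the scaling of the authors alone it was -0.26 (adjusted p = 0.330 in limma) and on TPM it was 0.02 (adjusted p = 0.939 in limma), so its direction depends on the scaling too. With the replicate number as a block, as the same number marks a pair of fractions, Eps8l1 reached an adjusted p of 0.0152 and Pop4 no longer passed, at 0.0549 (limma). The Hddc3 groups overlapped, with a difference of -0.12 (SE 0.16, adjusted p = 0.522 in limma), which became -0.73 (adjusted p = 0.00150) with the scaling of the authors. Gdpd3 and Klk1b22 were below the filter in control mice. Gdpd3 had 1 scaled count in each control rod TRAP library against 6 to 23 in control retina.

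In Abca4Ko mice the fraction values are given as a description. Groups of 4 of the 10 members did not overlap between the fractions there, against 69.4% of the 16036 genes tested. Tnnt1 was lower in rod TRAP by -3.09 (SE 0.26), Klk1b22 by -1.50 (SE 0.43) and Gramd1a by -0.94 (SE 0.22), and Prc1 was higher by 1.03 (SE 0.23). The Abca4Ko value of Eps8l1 was -0.28 with an SE of 1.05, the widest error among the members.

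**Figure D2:**
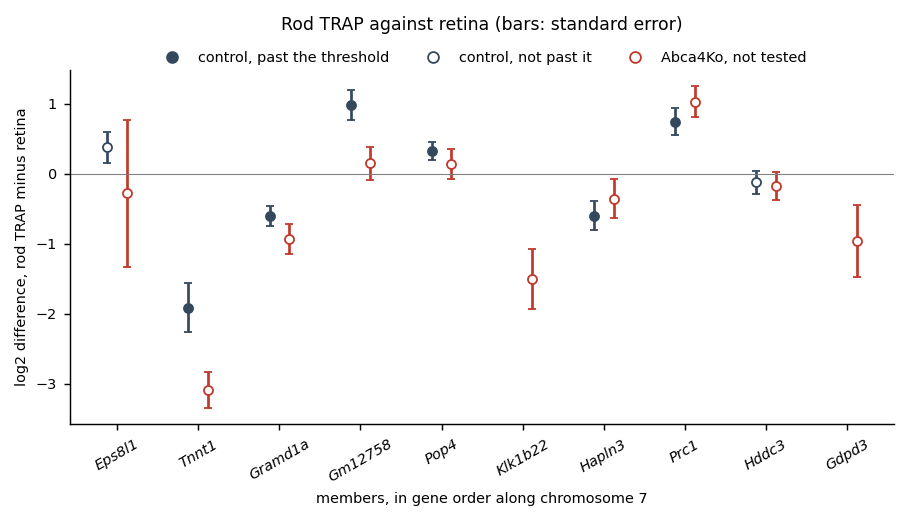
Points are the log2 difference of each member between rod TRAP and retina, with bars for the standard error (3 libraries a fraction), in control mice (blue, filled where the adjusted p was below 0.05) and Abca4Ko mice (red, not tested). Tnnt1 is lowest in both genotypes at -1.91 and -3.09, Prc1 is above 0 in both, and Gdpd3 and Klk1b22 have no control value because they did not pass the filter.

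Per length, the control levels of the members in retina ranged from 67.8 ± 6.06 TPM for Tnnt1 and 67.8 ± 6.29 TPM for Hddc3 down to 0 for Klk1b22. Gramd1a followed at 56.9 ± 3.42, Eps8l1 at 47.6 ± 10.6 and Pop4 at 29.1 ± 0.87 TPM. Neither Gramd1a and Eps8l1 nor the leading pair were apart by more than their spread. Gm12758 at 2.50 ± 0.53, Hapln3 at 2.00 ± 0.36, Gdpd3 at 0.77 ± 0.12 and Prc1 at 0.30 ± 0.10 TPM formed a low group. In control, the members that were lower in Abca4Ko were thus well expressed apart from Gm12758, and apart from Hddc3 the higher members were scarce. Genes chosen as lower need signal in control, so this split follows partly from the choice and is not read as a trait of the members.

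The library labelled Abca4Ko replicate 3 held more Abca4 transcripts than the other Abca4Ko libraries, and their source was not tested. For the members this library did not take a fixed place among the Abca4Ko libraries. In rod TRAP it was the nearest of the 3 to control for 3 members, between the other libraries for 2 and the farthest from control for 5. In retina these counts were 3, 3 and 4. Its place was the same in both fractions for 3 members, Eps8l1, Gdpd3 and Klk1b22. It was the farthest from control for Eps8l1, with 0% of the control mean CPM in rod TRAP and 0.71% in retina, where replicates 1 and 2 held 6.53% and 7.68%. Klk1b22 was also farthest from control there, at 24 and 131 scaled counts, the highest of each set. Gdpd3 was nearest to control there, at 12 and 60 scaled counts. All 10 members still did not overlap in either fraction when this library was left out. Genes chosen for not overlapping could hardly do otherwise, so nothing is read from that. Without replicate 3 the log2 difference of Eps8l1 was -3.85 in rod TRAP and -3.63 in retina, and that of Prc1 was 2.09 and 1.93.

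**Figure D3:**
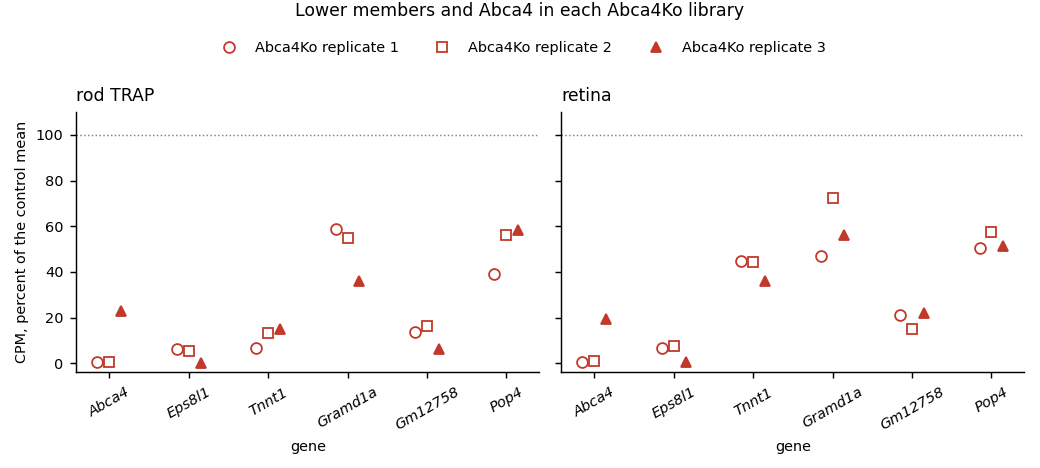
Points are the CPM of Abca4 and the 5 lower members in each Abca4Ko library as a percent of the control mean (dotted line at 100), with replicate 3 as a filled triangle, in rod TRAP (left) and retina (right). Replicate 3 is highest for Abca4, at 22.9% and 19.6%, and lowest for Eps8l1, at 0% and 0.71%.

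Along the chromosome the members did not form one block. In GRCm38 gene order they ran Eps8l1, Tnnt1, Gramd1a, Gm12758, Pop4, Klk1b22, Hapln3, Prc1, Hddc3 and Gdpd3, so that the 5 lower members preceded the 5 higher ones. Eps8l1 and Tnnt1 were separated by a single gene tested in both fractions, Ppp1r12c, whose log2 genotype differences were 0.00 (SE 0.10) in rod TRAP and -0.24 (SE 0.16) in retina. Prc1 and Hddc3 were likewise separated by Unc45a, at -0.23 (SE 0.09) and -0.48 (SE 0.15). The nearest tested genes on either side of the members that were not members themselves numbered 18 in each comparison. None of the 18 passed an adjusted p of 0.05 in limma, with 4 below an unadjusted p of 0.05 in rod TRAP and 2 in retina. Only 1.13% of all genes tested passed in rod TRAP and 0.106% in retina, so a set of this size holds few calls or none. Nothing is read from the count of neighbours called. The log2 differences of these neighbours lay between -0.65 and 0.55 in rod TRAP and between -0.49 and 0.49 in retina.

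Several members share their locus with a gene on the other strand, and the counting is not stated to use strand, so reads of the partners cannot be told apart. These pairs were Eps8l1 with Gm15494, Pop4 with Gm44767, Gramd1a with G630030J09Rik and Gm10640, Gm12758 with 4931406P16Rik, Prc1 with Rccd1 and 6330403N20Rik, Hddc3 with Man2a2 and Gm18310, and Gdpd3 with Gm9967. Rccd1, next to Prc1, was higher in Abca4Ko by 0.55 (SE 0.16) in rod TRAP and 0.49 (SE 0.24) in retina, neither past the threshold (limma adjusted p = 0.205 and 0.426). Man2a2, next to Hddc3, had 11566 to 16070 scaled counts a library and differences of 0.02 (SE 0.09) and -0.07 (SE 0.17), also not past it (limma adjusted p = 0.967 and 0.852). Klk1b22 belongs to a family of near-identical genes, among which counting can split reads, so its level is uncertain in that respect.

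**Figure D4:**
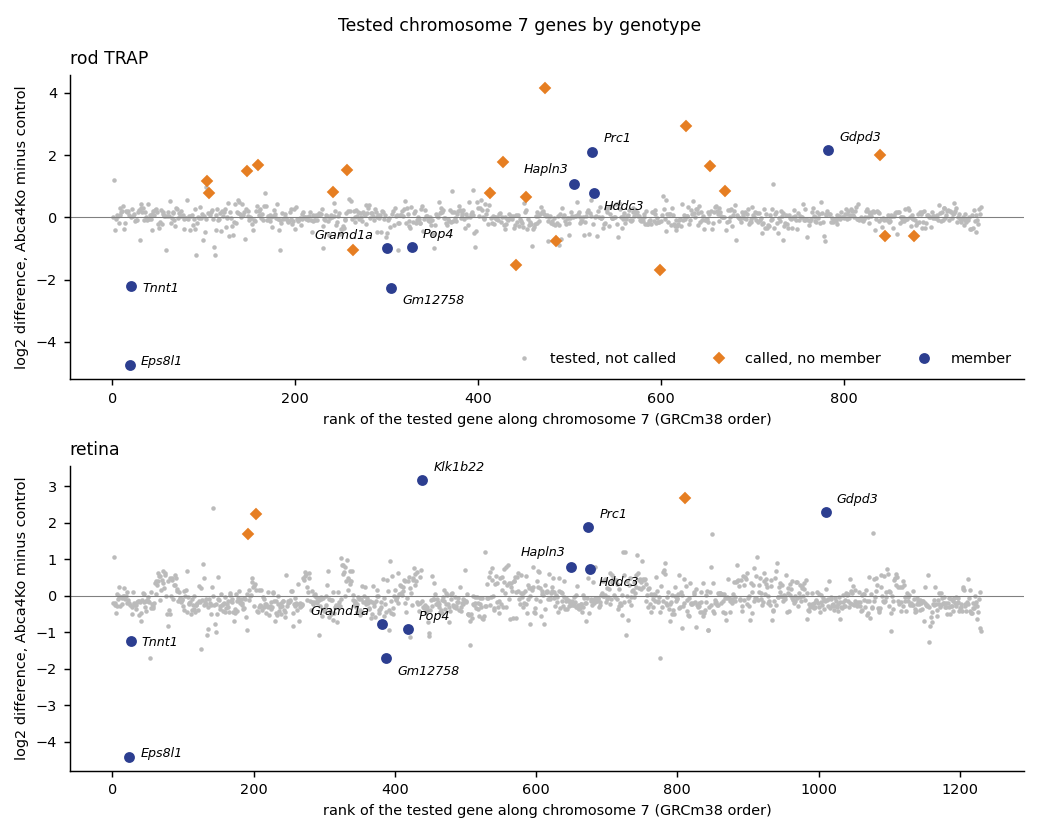
Each point is a tested gene of chromosome 7, placed by its rank in GRCm38 gene order, with the log2 difference Abca4Ko minus control on the vertical axis, in rod TRAP (top) and retina (bottom). Members (blue) are spread along the chromosome among genes near 0 (grey), with the lower members left of the higher ones, and other called genes (orange) lie on either side of 0.

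Other genes of the chromosome met the same description. Beyond the members, 199 tested chromosome 7 genes did not overlap between genotypes in rod TRAP and 265 in retina. With the members, non-overlapping genes were 21.9% of the chromosome in rod TRAP against 17.4% on the other chromosomes, and 22.3% against 19.9% in retina, shares close to the background. Chromosome 7 had 28 genes past an adjusted p of 0.05 in rod TRAP, 2.94% of its 951 genes tested, against 0.952% on all other chromosomes together. In retina it had 8, 0.649% of 1232, against 0.0534%. These were the highest shares among the 20 chromosomes ranked, followed by chromosome 14 in rod TRAP (2.29%) and chromosome 18 in retina (0.228%). The chromosome was chosen with such results known and its shares count the members, so nothing is read from the rank. Members made up 8 of the 28 and 5 of the 8. Leaving out 1 library moved the rod TRAP number to between 8 (without control replicate 2) and 69 (without Abca4Ko replicate 1) and the retina number to between 0 (without Abca4Ko replicate 1 or 2 or control replicate 3) and 5. Chromosome 3, which carries Abca4, had 10 of 601 in rod TRAP, or 1.66%. The called genes that were not members included Pcsk6, with a log2 difference of 4.14, and Slc1a5, with 1.17, on the higher side and Myo7a, with -1.71, on the lower side in rod TRAP, so the other calls were not split by position as the members were. By absolute log2 difference among the non-overlapping chromosome 7 genes, Eps8l1 ranked first in both fractions, and Hddc3 ranked 41 of 208 in rod TRAP and 56 of 275 in retina. The members are therefore not simply the largest differences on the chromosome.

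The relatives and partners of the members were compared in the same way. Among 68 related genes, the filter left 27 in rod TRAP and 37 in retina, and none passed an adjusted p of 0.05 in limma, with 2 and 0 below an unadjusted p of 0.05. Since 1.13% and 0.106% of all genes tested passed, lists of this size hold few calls or none at that share, and nothing particular to the relatives is read from the count. Without Abca4Ko rod TRAP replicate 1, 1 of them passed in rod TRAP. Their median log2 difference was 0.07 in rod TRAP, where that of all genes was 0.00, and 0.00 in retina, where it was -0.02. The 10 other subunits of RNase P and RNase MRP, the complexes that hold Pop4, had a median of 0.10 in rod TRAP and lay between -0.21 and 0.29. The 7 tested genes of the central spindle and cytokinesis, the setting in which Prc1 acts, had a median of 0.28 in rod TRAP. They lay between -0.62 and 0.56 there, and the 7 tested in retina had a median of 0.18, between 0.00 and 0.41. The 2 related genes below an unadjusted p of 0.05 in rod TRAP (limma) were of this list. Both, Kif20a (-0.47) and Kif14 (-0.62), were lower in Abca4Ko, opposite to Prc1. Among the troponins, which act with Tnnt1 in muscle, none of 7 passed the filter in rod TRAP, and the 3 tested in retina lay between -0.49 and 0.14. None of the 13 other kallikreins passed the filter in either fraction. Eps8, the founding relative of Eps8l1, differed by 0.03 (SE 0.10) in rod TRAP and 0.34 (SE 0.21) in retina.

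The genes whose profile was most like that of a member came from many chromosomes. Likeness was Pearson's r over the 12 libraries on log2 values centred within each fraction, among 12890 genes, and is a description, since members and their likes share the libraries. Genotype was not removed from these values, so r, also between members, largely restates the separation by which the members were chosen. Eps8l1 was most like Gm10654 on chromosome 8 (r = 0.963) and Lynx1 on chromosome 15 (r = 0.961), and Lynx1 was also nearest to Gramd1a (r = 0.964). Pop4 was most like Abhd14a on chromosome 9 (r = 0.984). For Gdpd3 the nearest was Gm5900 on chromosome 7 (r = 0.976), for Hddc3 it was Gm14036 on chromosome 2 (r = 0.981) and for Klk1b22 it was Zfp868 on chromosome 8 (r = 0.941). Tnnt1 was most like A2m on chromosome 6 (r = 0.947), Gm12758 most like Camk1g on chromosome 1 (r = 0.949) and Hapln3 most like Prok1 on chromosome 3 (r = 0.932). Of the next in line, A030001D20Rik (for Gm12758, r = 0.935), Zfp710 (for Gramd1a, r = 0.950), Slc1a5 (for Hapln3, r = 0.928) and Tescl (for Klk1b22, r = 0.940) were on chromosome 7. Among the members themselves the closest pair in opposite directions was Gm12758 and Prc1 (r = -0.970), and the closest pair in the same direction was Eps8l1 and Gramd1a (r = 0.935).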

How the data were processed

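Abca4Ko and control mice were compared in rod TRAP and retina, with 3 libraries a group mapped from the labels. The authors deposited scaled counts, whole-number values equalised in total within each fraction and treated here as a score because they are not raw counts, and TPM values made from the same libraries. The submitters' processing notes name CASAVA 1.8.2, HISAT2, DESeq2, edgeR and GRCm39, and the counting program and its use of strand are not given in the sources used here. No per-sample column was left unused, and no column of the authors' own comparisons was used. The sources used here give no number of reads for a library. The totals quoted come from the factor whose rounding best matched the spacing of low scaled counts, a procedure that was tested on simulated data, and values are therefore limited by counting at low levels.

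Scaled counts were rescaled within each comparison by the trimmed mean of M values (TMM, trimming 0.3 of log ratios and 0.05 of levels), so CPM values of the genotype and fraction comparisons differ slightly. Genes with at least 10 scaled counts in at least 3 libraries were tested on log2(CPM + 0.5) with limma 3.58.1 (trend, robust; R 4.3.3), two-sided, with Benjamini-Hochberg adjustment over all genes tested and a threshold of 0.05. A fold on this scale understates the change of low genes. The fit was tested on simulated data. TPM were tested on log2(TPM + 1) as an alternative. The deposited unit is not a raw count, so no count model was used. Genotype fits had no block. Deviations of same-numbered rod TRAP and retina libraries from their group means correlated at 0.183 to 0.567, all above the 0.1 set for pairing, so the numbers were taken to pair the fractions (for Abca4Ko replicate 2 the correlation with another number, 0.296, was above that with its own, 0.267), and the blocked fit is an alternative there. Genotypes are not paired by number (correlations -0.488 to 0.016).

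The members and gene lists were chosen with earlier results of these data known. All 10 members are named in every library, with their nearest tested neighbours, the related genes that were called and otherwise the range, and the 2 most alike genes of each member, of which the text gives a selection. Gene order and overlaps come from GENCODE on GRCm38, and no coordinate in the authors' build was used. Other alternatives were the authors' scaling, median-of-ratios scaling, pseudocounts of 0.1 and 1 CPM, no filter, limma without trend or robust, all 12 libraries in 1 fit and leaving out each library. The Python analysis used 3.11.15 with pandas 2.3.3.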

Additional observations from a re-analysis of the deposited data

How the results depend on the processing

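The 10 members did not overlap between genotypes in any fit that left out 1 library, which follows from choosing them for that separation. On the scaled counts or TPM as deposited the retina groups of Hapln3 overlapped. The number of chromosome 7 genes past the threshold changed with the fit. In rod TRAP it was 28, and 15 on the TPM table, 12 without trend or robust, and 8 to 69 when 1 library was left out, with 69 without Abca4Ko replicate 1, 22 without the library labelled Abca4Ko replicate 3, 18 without Abca4Ko replicate 2 and 8 to 10 without a control library. The retina number was 8, and 5 with the authors' scaling, 14 with all 12 libraries in 1 fit, 14 with the replicate block, and 0 to 5 when 1 library was left out, with 0 without Abca4Ko replicate 1 or 2 or control replicate 3. All genes called by genotype numbered 148 in rod TRAP, with 47 on the TPM table, 42 without trend or robust, 94 with all 12 libraries and 30 to 594 when 1 library was left out (594 if Abca4Ko replicate 1 was dropped, 36 for control replicate 1, 30 for control replicate 2, 33 for control replicate 3). The retina total was 18, with 33 with no filter, 38 on the TPM table, 62 with all 12 libraries, 46 with the replicate block and 1 to 21 when 1 library was left out (1 without Abca4Ko replicate 1 or control replicate 3, 4 without Abca4Ko replicate 2 and 10 without control replicate 1). The shares of all genes called by genotype move with these numbers. In control mice 4 to 5 of the 6 members called by fraction passed when 1 library was left out. With the authors' scaling the fraction differences of Eps8l1 (-0.26) and Pop4 (-0.31) reversed, and on the TPM table that of Pop4 did (-0.15). Pseudocounts moved the log2 differences of the scarce members, for Klk1b22 in retina from 3.19 to 2.35 with 1 CPM and 5.37 with 0.1 CPM. The cause of these changes was not tested beyond the construction of each fit. Depth limits Klk1b22, Gdpd3 and Gm12758, whose low groups hold few counts.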
